A study of Homo sapiens with 11 samples.

Results

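The genes described here encode structural proteins of the extracellular matrix: collagens, laminins, their basement membrane linkers, matrix glycoproteins and the enzymes that cross-link collagen. The 40 members were chosen by gene symbol, and all 40 were found among the 57736 gene IDs of the count table. They were chosen with earlier results of these data known. The shares of members called below are therefore set beside those of all genes as description only. Of these, 33 had enough counts to be tested among the 13980 genes that passed the filter on low counts. The 7 others are described with the levels below.

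RNA-seq was made from HEC50B, a human endometrial cancer cell line. R183W cells were the parental line; its PPP2R1A gene, for the scaffold of the phosphatase PP2A, has the R183W mutation. WT cells were derived from that line by CRISPR and have wild-type PPP2R1A; whether they are 1 clone was not given in the sources used here. Both lines received 50 µM WM1119, an inhibitor of the histone acetyltransferase KAT6A, or vehicle, for 4 days. The groups were R183W cells with WM1119 (2 libraries), R183W cells with vehicle (3), WT cells with WM1119 (3) and WT cells with vehicle (3). The labels do not say that the numbered libraries came from separate cultures, so p-values reflect the spread among these samples only, and that spread may be technical.

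Basement membranes are sheets built from a laminin network and a type IV collagen network, which nidogens and heparan sulfate proteoglycans such as perlecan join together. Each laminin is a trimer of an alpha, a beta and a gamma chain, and each collagen is a trimer of alpha chains, alike or different. The interstitial matrix holds fibrillar collagens, fibronectin, versican and tenascin-C, which are mostly made by stromal cells in the endometrium and which cultured carcinoma cells can also make. Cells bind these proteins through integrins, syndecans, CD44 and discoidin domain receptors.

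The promoter sequences of 4 sets of members are shown as description, and no result below was tested against them. FN1 had opposite changes in the 2 genotypes, LAMB1 and LAMC1 are partner chains, and COL4A1 and COL4A2 are transcribed away from each other. The first 3 windows hold the 250 bases before the RefSeq start site (GRCh38.p14), 5′ to 3′ on the strand of the gene. FN1 is on the minus strand at chr2:215436069-215436318, LAMB1 on the minus strand at chr7:108003162-108003411 and LAMC1 on the plus strand at chr1:183023170-183023419. The COL4A1 and COL4A2 window is the 126 bases between their start sites, which lie 127 bases apart, on the plus strand at chr13:110307158-110307283. Capitals mark matches, on either strand, to an AP-1 site (TGANTCA), a TEAD site (CATTCC), a cyclic AMP response element or CRE (TGACGTCA), a CCAAT box (CCAAT) or a GC box (GGGCGG).
FN1: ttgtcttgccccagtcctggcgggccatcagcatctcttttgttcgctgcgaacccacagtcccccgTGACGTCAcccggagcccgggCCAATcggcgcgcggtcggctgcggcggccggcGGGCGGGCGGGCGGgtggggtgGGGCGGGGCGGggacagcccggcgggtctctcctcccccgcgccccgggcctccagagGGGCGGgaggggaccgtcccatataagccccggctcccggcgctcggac
LAMB1: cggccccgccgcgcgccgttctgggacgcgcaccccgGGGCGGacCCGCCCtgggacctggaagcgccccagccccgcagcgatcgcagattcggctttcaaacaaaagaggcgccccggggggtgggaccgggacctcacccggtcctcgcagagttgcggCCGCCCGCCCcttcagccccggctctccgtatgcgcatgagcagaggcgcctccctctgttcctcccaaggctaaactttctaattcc
LAMC1: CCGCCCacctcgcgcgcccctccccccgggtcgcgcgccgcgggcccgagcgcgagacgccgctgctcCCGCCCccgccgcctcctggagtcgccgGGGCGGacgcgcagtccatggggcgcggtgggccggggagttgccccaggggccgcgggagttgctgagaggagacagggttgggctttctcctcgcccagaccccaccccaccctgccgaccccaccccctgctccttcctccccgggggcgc
COL4A1 and COL4A2: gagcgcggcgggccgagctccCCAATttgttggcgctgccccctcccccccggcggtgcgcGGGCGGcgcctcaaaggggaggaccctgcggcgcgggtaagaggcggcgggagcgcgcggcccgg

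The 31 member genes searched had 38 windows, since RefSeq lists more than 1 start site for some. A CRE was found in 1 member window, that of FN1, or 2.63%, against 1.65% of the 35116 RefSeq windows. The FN1 window also held a CCAAT box and 6 GC boxes, some of which overlap each other. The LAMB1 window held 4 GC boxes and the LAMC1 window 3, and neither held any of the other motifs. GC boxes were found in 28 of the 38 member windows, or 73.7%, against 42.6% of all windows. CCAAT boxes were found in 12 member windows, or 31.6%, against 32% of all windows. TEAD sites were found in 4, or 10.5%, against 11.9%, and AP-1 sites in 2, or 5.26%, against 6.57%. These matches describe letters in the window and were not tied to any binding data.

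Library totals were between 2609922 (WT WM1119 library 3) and 6065149 counts (R183W vehicle library 1). Levels are CPM, counts scaled to library size with TMM factors, and 0 counts allow up to 1.15 CPM in the shallowest library and 0.495 CPM in the deepest. Library WT WM1119 3 stood apart: it scored -78.23 on the second principal component, where the other 10 libraries scored -26.62 to 35.76. PPP2R1A was called higher in R183W than in WT cells under vehicle (34.3 ± 2.86 CPM in R183W cells and 23.2 ± 2.69 CPM in WT cells, SD, n = 3 each; edgeR adjusted p = 0.0463) and not under WM1119, and gene counts cannot show the mutation. KAT6A was not called with WM1119 in either genotype (edgeR adjusted p = 0.895 in R183W cells and 0.0896 in WT cells), and its enzyme activity was not measured. Of 11 epithelial and endometrial markers, 6 reached 1 CPM in every group, with KRT8, EPCAM and PAX8 among them, while E-cadherin (CDH1) had 0 to 8 counts per group and PGR and SOX17 had 0. Of 11 fibroblast markers, 2 to 4 reached 1 CPM. Their summed level was 96.0 to 96.4 CPM in R183W WM1119 libraries, 113 to 129 in R183W vehicle libraries, 96.6 to 219 in WT WM1119 libraries and 139 to 217 in WT vehicle libraries. Most of it was PDGFRA, and the markers DCN, POSTN and HAND2 had 0 counts in every library. LUM, another fibroblast marker, averaged 0.151 CPM in R183W WM1119 libraries, 1.69 in R183W vehicle, 1.40 in WT WM1119 and 4.05 in WT vehicle libraries. In such bulk samples, fewer cells with a transcript and less of it per cell cannot be told apart.

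The members together took a small share of each library. It was 0.392% and 0.398% of counts in the R183W WM1119 libraries, against 0.454%, 0.48% and 0.489% in the R183W vehicle libraries, which did not overlap. In WT cells it was 0.486%, 0.458% and 0.407% with WM1119, against 0.49%, 0.514% and 0.523% with vehicle, where again every WM1119 library was lower. LAMB1, VCAN and COL1A1 supplied 51.9% to 64.6% of the member counts in each library.

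Per kb of exon, the tested members spanned 120.2 CPM per kb for LAMB1 to 0.149 CPM per kb for COL12A1, as means over the 11 libraries. The length was that of all annotated exons of a gene over all its transcripts. Levels per kb and their ranks depend on it, and the transcripts expressed may be shorter. LAMB1, the laminin beta 1 chain, was the most abundant. COL1A1, the alpha 1 chain of type I collagen, followed at 74.2 CPM per kb, COL6A1 at 64.8, VCAN (versican, a large chondroitin sulfate proteoglycan) at 63.2, LAMC1 at 33.02 and SPARC, a secreted collagen-binding glycoprotein, at 30.9. LAMB1 ranked first in all 4 groups. The order below it shifted with the group: COL1A1 ranked second in R183W cells with vehicle and in WT cells with WM1119, and 4th in the other groups. The laminin alpha chains were far below LAMB1 and LAMC1: LAMA5 reached 9.41 and LAMA4 6.51 CPM per kb, while LAMA3 reached 0.286 and LAMA1 0.208. The beta chains LAMB2, at 3.13, and LAMB3, at 0.468 CPM per kb, were below LAMA5 and LAMA4.

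Partner chains of the same collagen were not balanced. COL1A2, the second chain of type I collagen, had 4 counts in all, in WT vehicle library 2, although COL1A1 had 564.9 CPM or more in every library. COL3A1 (type III collagen) and FBN2 (fibrillin 2) had 0 counts in all 11 libraries. COL5A2, COL4A6, COL17A1 and FBN1 had 40, 7, 2 and 19 counts over all libraries, and no library held more than 10 of any of them. Levels of COL6A1 per kb were 33.4 and 45.9 times those of COL6A2 in R183W WM1119 libraries, 18.2 to 24.9 times in R183W vehicle libraries, 20.2 to 39.3 times in WT WM1119 libraries and 22.8 to 24.9 times in WT vehicle libraries. LAMB1 per kb was 3.2 to 4.21 times LAMC1 in every library, and COL4A2 1.46 to 2.92 times COL4A1. These ratios rest on the annotated exon lengths, such as 19293 bases for COL4A2 and 14738 for COL4A1, and not on the transcripts expressed.

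**Figure D1:**
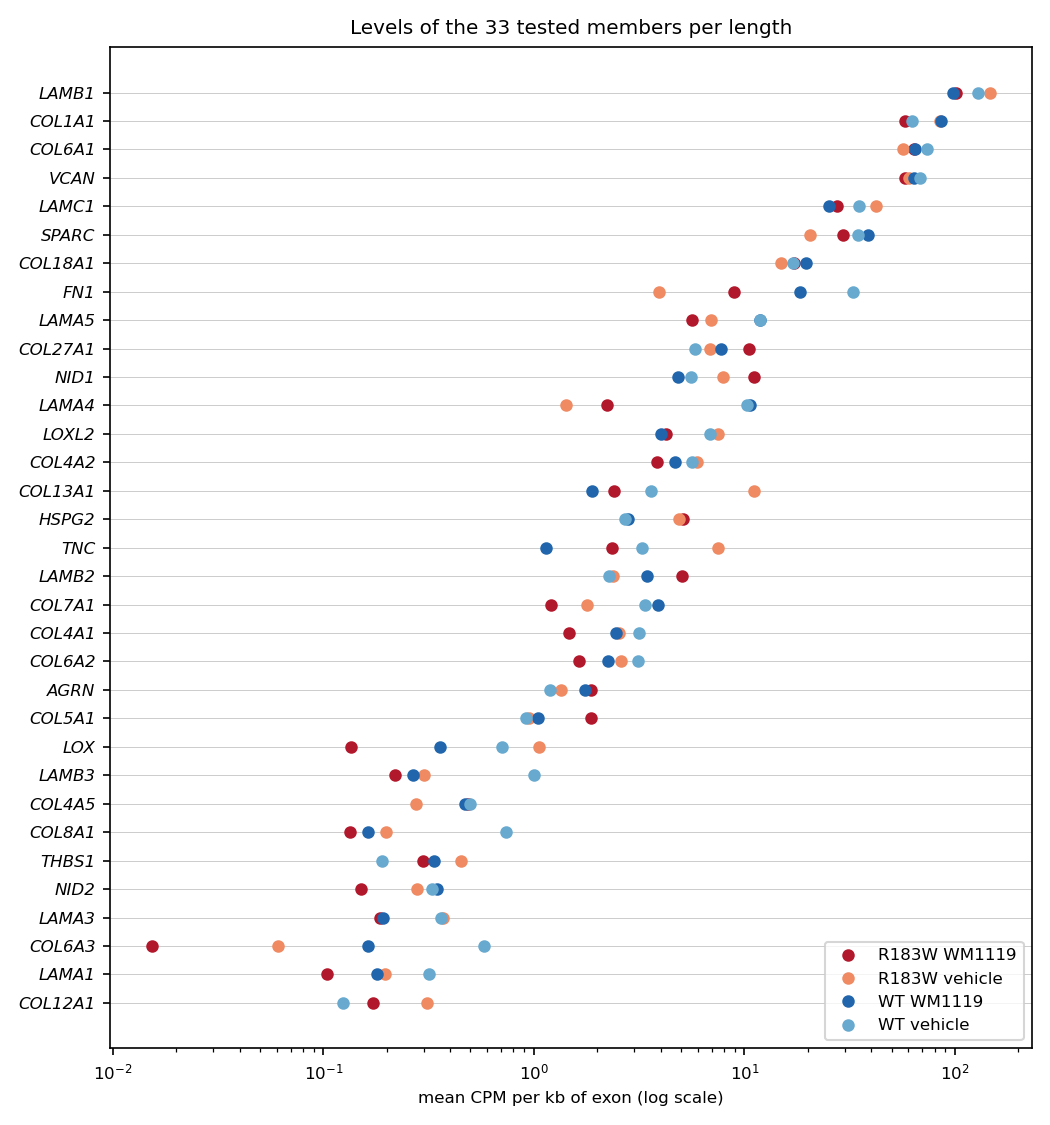
Mean level of each of the 33 tested members (vertical axis, ordered by the mean over libraries) in CPM per kb of exon on a log scale (horizontal axis), with 1 point per group. LAMB1 lies at the top in every group, FN1 and LAMA4 lie far apart between groups, and COL12A1 in WT cells with WM1119 is at 0 and so has no point.

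The first comparison asked how WM1119 changed the matrix genes in each genotype. In R183W cells, transcripts of the major laminin beta 1 and gamma 1 chains, of COL1A1, of the membrane collagen COL13A1 and of tenascin-C fell, while fibronectin, laminin beta 2 and COL27A1 rose. Of 33 tested members, 9 were called at an edgeR adjusted p under 0.05, 3 higher and 6 lower, which is 27.3% of them; over all genes, 4.64% were called, 1.99% higher and 2.65% lower. The median log2 change of the tested members was -0.558, against -0.00107 over all genes tested. In WT cells, 4 of 33 were called, 1 higher and 3 lower, or 12.1%, against 4.86% of all genes (2.33% higher, 2.53% lower). The member median there was -0.196, against -0.00312 over all genes. Over all genes tested in R183W cells, 23.2% had every WM1119 library above every vehicle library and 23.6% had every one below. In WT cells these shares were 10.7% and 11.6%, so a lack of overlap alone is common.

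The counts of members called depended on single libraries, and the share of all genes called moved with them. Fits that left out a library outside the groups compared kept every library of that comparison. Such fits changed only the shared spread, the scaling and the filter, so a call kept in them is a weaker check. In R183W cells the count of 9 members became 2 without R183W WM1119 library 1 or 2, where 0.883% and 0.803% of all genes were called in turn. It became 3 and 4 without R183W vehicle libraries 2 and 3 in turn, where 1.9% and 1.98% of all genes were called. Leaving out WT WM1119 library 3 made it 15, with 11.5% of all genes called. In WT cells the count of 4 became 2 without R183W WM1119 library 1 or 2 or R183W vehicle library 2, with 3.23% to 3.32% of all genes called. It became 1 without the WT WM1119 library 2 (1.96% of all genes) or WT vehicle library 2 (1.87%) or 3 (1.78%), and 8 when WT WM1119 library 1 was left out (10% of all genes). It was 6 when library WT WM1119 3, which stood apart, was left out, with 6.06% of all genes called.

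No tested marker gene was called with WM1119 in WT cells, where 4.86% of all genes were called. In R183W cells 2 were called, 1 of 6 tested epithelial and 1 of 4 tested fibroblast markers, against 4.64% of all genes. The epithelial adhesion molecule EPCAM was higher, at 80.8 ± 5.82 CPM with WM1119 (SD, n = 2) and 38.4 ± 2.18 CPM with vehicle (n = 3; log2 1.07, SE 0.16, edgeR adjusted p = 0.00162). PDGFRB, a receptor of stromal cells, was lower, at 0.271 CPM with WM1119 and 5.82 CPM with vehicle (edgeR adjusted p = 0.00749), which are 2 counts against 88. The EPCAM call held in all 11 leave-one-out fits; that of PDGFRB was lost without R183W WM1119 library 1 (0.124) or 2 (0.106) and by limma-voom (0.148). Their part in the matrix changes was not tested.

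**Figure D2:**
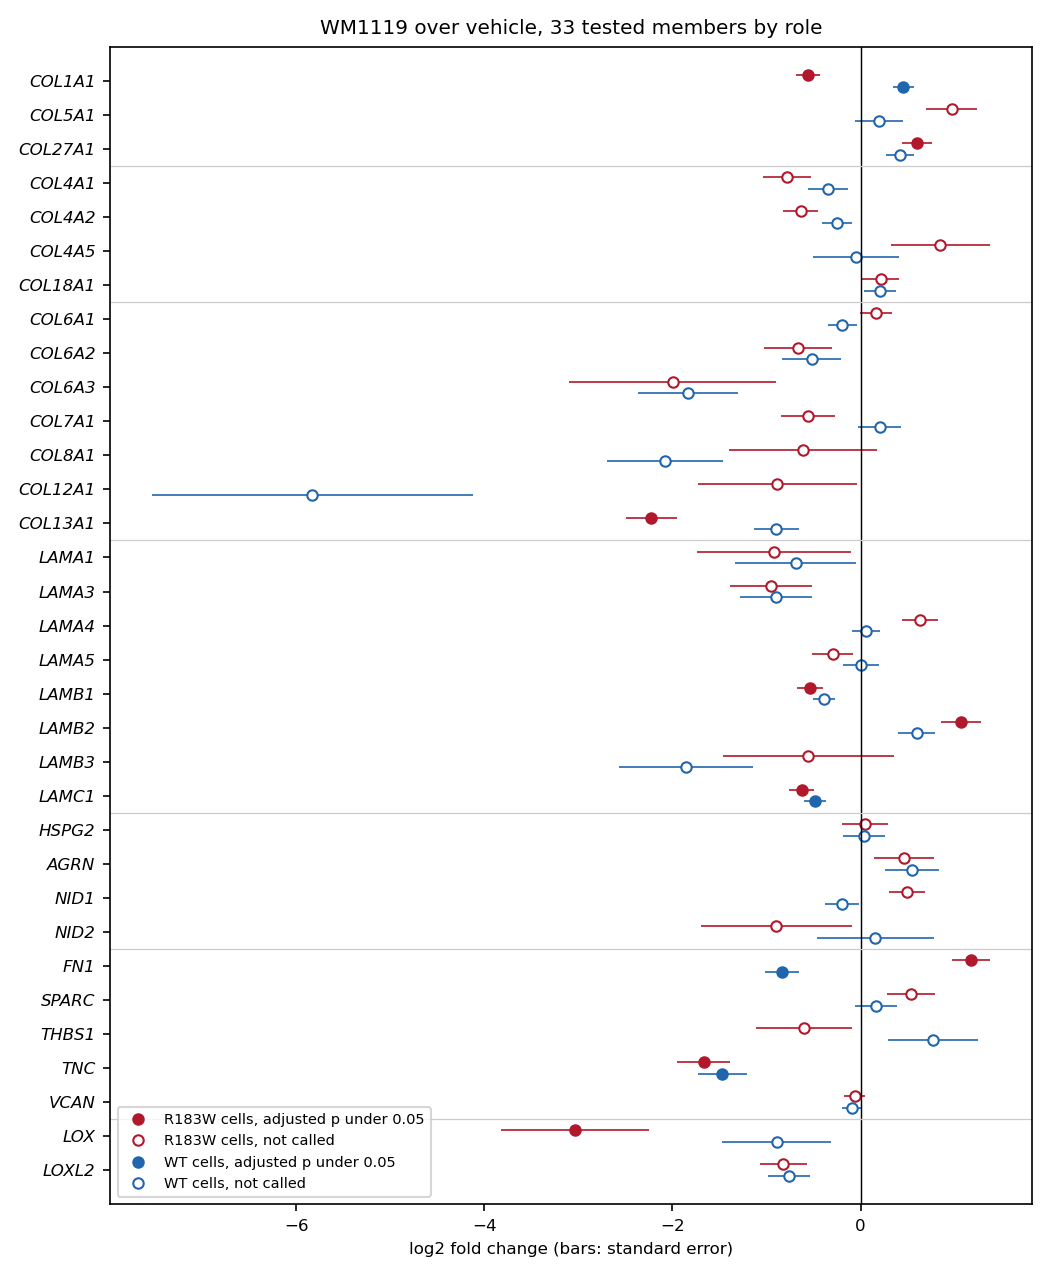
Log2 change with WM1119 over vehicle (horizontal axis; bars are standard errors) of the 33 tested members, grouped by role, in R183W cells (red) and WT cells (blue). Filled points passed the threshold; LAMC1 and TNC fell in both genotypes, and COL1A1 and FN1 lie on opposite sides of 0.

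COL1A1 (ENSG00000108821) went in opposite directions in the 2 genotypes. It had 565 and 568 CPM in R183W cells with WM1119, against 724, 854 and 927 CPM in R183W cells with vehicle. In WT cells it had 863, 819 and 849.7 CPM with WM1119, against 579.7, 609 and 656 CPM with vehicle. Neither pair of groups overlapped: every WM1119 library was lower in R183W cells and higher in WT cells. The log2 change was -0.56 (SE 0.13, edgeR adjusted p = 0.0241) in R183W cells and 0.46 (edgeR adjusted p = 0.0354, SE 0.11) in WT cells. The R183W call did not hold without R183W WM1119 library 1 (adjusted p = 0.172) or 2 (0.191) or R183W vehicle library 2 (0.093) or 3 (0.109). The WT call was kept in 4 of the 11 fits that left out 1 library, those without R183W vehicle library 1 or 3 or WT WM1119 library 1 or 3, and reached at most 0.136 in the others.

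Among the other fibrillar collagens, COL27A1 (ENSG00000196739), a collagen of developing cartilage, rose in R183W cells. It had 154 and 139 CPM with WM1119, against 99.5, 104 and 85.4 CPM with vehicle. In WT cells it had 90.5, 112 and 124 CPM with WM1119, against 88.4, 75.8 and 79.0 CPM with vehicle. The WM1119 libraries lay above the vehicle libraries in both genotypes, but only the R183W change was called (log2 0.60, SE 0.16, edgeR adjusted p = 0.0465; WT log2 0.42, SE 0.15, adjusted p = 0.114). That call held in 2 of 11 leave-one-out fits, those without WT WM1119 library 1 or 3, and the adjusted p reached 0.315 in the others. COL5A1, the main chain of type V collagen, which controls fibril diameter, had 15.6 and 26.3 CPM with WM1119 and 9.20 to 12.0 CPM with vehicle in R183W cells (log2 0.97, SE 0.27, edgeR adjusted p = 0.0611, not called).

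Of the basement membrane collagens, none was called with WM1119. COL4A1 and COL4A2 are the paired chains of the ubiquitous type IV collagen, and their start sites face away from each other in the sequence above. Both were lower in each R183W WM1119 library than in any R183W vehicle library, as were 23.6% of all genes tested. COL4A1 had 23.0 and 20.2 CPM with WM1119, against 32.5, 43.2 and 36.1 CPM with vehicle in R183W cells (log2 -0.78, SE 0.25, edgeR adjusted p = 0.105). COL4A2 had 71.0 and 77.3 CPM with WM1119, against 124, 113 and 109.5 CPM with vehicle in R183W cells (log2 -0.64, SE 0.18, edgeR adjusted p = 0.0657). In WT cells their log2 values were -0.35 and -0.25, and the groups overlapped. COL18A1, the source of endostatin and the most abundant basement membrane collagen per kb here, had 140.1 and 153 CPM with WM1119 and 114 to 143 CPM with vehicle in R183W cells, which overlapped.

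COL13A1 (ENSG00000197467), a transmembrane collagen of cell adhesion sites, had the largest fold change among called members after LOX in R183W cells. It had 11.04 and 17.2 CPM with WM1119, against 64.2, 66.99 and 65.3 CPM with vehicle, a log2 change of -2.22 (edgeR adjusted p = 0.000474, SE 0.27). No library came near those of the other group, and the call held in all 11 leave-one-out fits. WT cells had 15.8, 8.99 and 8.67 CPM with WM1119, against 19.2, 24.2 and 20.3 CPM with vehicle, also without overlap, but the change missed the threshold (log2 -0.89, SE 0.24, edgeR adjusted p = 0.0505). With WM1119 the 2 genotypes thus stood at like levels, 14.1 ± 4.37 CPM in R183W cells (SD, n = 2) and 11.2 ± 4.04 CPM in WT cells (SD, n = 3). COL12A1, a fibril-associated collagen, had 0 counts in the 3 WT WM1119 libraries, against 3, 2 and 19 counts in the WT vehicle libraries. Most of these vehicle counts were in library 3, and the difference was not called (edgeR adjusted p = 0.0745). COL6A1, the type VI collagen chain, had 349.6 and 329.8 CPM with WM1119 and 266 to 359 CPM with vehicle in R183W cells, which overlapped.

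The laminin beta 1 and gamma 1 chains, partners in the most common laminin trimers, fell with WM1119 in R183W cells. LAMB1 (ENSG00000091136) had 828 and 817 CPM with WM1119, against 1156, 1222 and 1206 CPM with vehicle in R183W cells. In WT cells it had 913, 822 and 659 CPM with WM1119, against 1040, 1033 and 1062 CPM with vehicle. The groups did not overlap in either genotype, with a log2 change of -0.54 (edgeR adjusted p = 0.0359, SE 0.13) in R183W cells and -0.39 (edgeR adjusted p = 0.0769, SE 0.12) in WT cells. LAMC1 (ENSG00000135862) had 242 and 221 CPM with WM1119, against 374, 357 and 338 CPM with vehicle in R183W cells. In WT cells LAMC1 had 224, 203 and 208 CPM with WM1119, against 290.3, 267 and 329.7 CPM with vehicle. LAMC1 was called lower in both genotypes, with a log2 change of -0.62 (edgeR adjusted p = 0.0173, SE 0.13) in R183W cells and -0.48 (edgeR adjusted p = 0.0322, SE 0.12) in WT cells. The LAMB1 call was kept in 4 of 11 leave-one-out fits, those without WT WM1119 library 1 or 3 or WT vehicle library 1 or 3, and reached 0.276 in the others. The LAMC1 call in R183W cells did not hold without R183W WM1119 library 1 (0.102) or 2 (0.205) or R183W vehicle library 2 (0.0638). In WT cells the LAMC1 call held without R183W vehicle library 1, WT WM1119 library 1 or 3 or WT vehicle library 1, and reached 0.147 in the other fits. LAMB1 overlaps DLD on the other strand, and the sources used here do not give the strand setting of the counting.

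The laminin beta 2 chain, which replaces beta 1 in some basement membranes, moved the other way. LAMB2 (ENSG00000172037) had 36.7 and 32.3 CPM with WM1119, against 19.1, 15.6 and 14.4 CPM with vehicle in R183W cells. In WT cells LAMB2 had 26.4, 22.9 and 21.9 CPM with WM1119, against 13.2, 18.5 and 15.4 CPM with vehicle. Every WM1119 library was above every vehicle library in both genotypes, but only the R183W change was called (log2 1.07, SE 0.21, edgeR adjusted p = 0.0109; WT log2 0.60, SE 0.20, adjusted p = 0.1). The call did not hold without R183W WM1119 library 1 (0.147) or 2 (0.0788) or R183W vehicle library 2 (0.0549) or 3 (0.0578). Of the alpha chains none was called. LAMA4, an alpha chain of vascular and mesenchymal laminins, had 21.8 and 29.6 CPM with WM1119 and 14.7 to 20.1 CPM with vehicle in R183W cells (log2 0.63, SE 0.19, edgeR adjusted p = 0.0753).

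The basement membrane linkers HSPG2 (perlecan), AGRN (agrin), NID1 and NID2 (nidogens) were not called with WM1119 in either genotype. NID1 had 68.9 and 61.9 CPM with WM1119, against 46.9, 39.8 and 52.5 CPM with vehicle in R183W cells, without overlap (log2 0.50, SE 0.19, edgeR adjusted p = 0.168). HSPG2 had 94.1 and 90.0 CPM with WM1119 and 83.3 to 99.5 CPM with vehicle in R183W cells, which overlapped. NID2 overlaps the far more abundant RTRAF on the other strand, with 5336 counts against 93, and its values are uncertain. So are those of AGRN, which overlaps AL645608.5 on the same strand, with 18037 counts against 757 for AGRN.

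Fibronectin also moved in opposite directions. FN1 (ENSG00000115414), the adhesive glycoprotein that integrins assemble into fibrils, had 151 and 157 CPM with WM1119, against 61.1, 73.4 and 69.5 CPM with vehicle in R183W cells. In WT cells it had 379.5, 347 and 225 CPM with WM1119, against 468, 603 and 628 CPM with vehicle. In neither genotype did the groups overlap: FN1 rose in R183W cells and fell in WT cells. The log2 change was 1.18 (SE 0.20, edgeR adjusted p = 0.00484) in R183W cells and -0.83 (edgeR adjusted p = 0.0167, SE 0.18) in WT cells. The R183W call did not hold without R183W WM1119 library 1 (0.0573) or 2 (0.0759). The WT call did not hold without WT WM1119 library 2 (0.0516) or WT vehicle library 2 (0.0844) or 3 (0.0774). WT WM1119 library 3 was the lowest of its group, and leaving it out gave a WT log2 change of -0.64.

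Tenascin-C fell in both genotypes. TNC (ENSG00000041982), an anti-adhesive glycoprotein of developing, wounded and tumor tissue, had 25.7 and 19.6 CPM with WM1119, against 57.9, 73.0 and 86.6 CPM with vehicle in R183W cells. In WT cells TNC had 14.7, 12.3 and 5.78 CPM with WM1119, against 30.3, 31.3 and 33.1 CPM with vehicle. No group overlapped its vehicle control, with a log2 change of -1.67 (edgeR adjusted p = 0.00416, SE 0.28) in R183W cells and -1.47 (edgeR adjusted p = 0.00635, SE 0.26) in WT cells. The WT call held in all 11 leave-one-out fits and the R183W call in 10, being lost without R183W WM1119 library 2 (0.107). VCAN, abundant in all groups, had 839.6 and 880.1 CPM with WM1119 and 844 to 944 CPM with vehicle in R183W cells (log2 -0.06, SE 0.11, edgeR adjusted p = 0.808). In WT cells VCAN had 921 to 1007 CPM with WM1119 and 982 to 1054 CPM with vehicle (log2 -0.09, SE 0.10, edgeR adjusted p = 0.632); the groups overlapped in both genotypes. SPARC and THBS1 (thrombospondin 1) were not called in either genotype.

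Of the cross-linking enzymes, LOX (ENSG00000113083), lysyl oxidase, which starts the covalent cross-linking of collagen and elastin, fell in R183W cells. It had 0 and 1.51 CPM with WM1119, against 6.77, 4.92 and 5.88 CPM with vehicle, which are 5 counts against 93. In WT cells LOX had 2.85, 2.31 and 0.826 CPM with WM1119, against 2.90, 4.38 and 4.52 CPM with vehicle. The R183W log2 change of -3.04 (edgeR adjusted p = 0.0437, SE 0.79) rests on those few counts, and the call was kept in 4 of 11 leave-one-out fits, those without R183W WM1119 library 2, WT WM1119 library 1 or 3 or WT vehicle library 1, with an adjusted p of up to 0.262 in the others. Its log2 change ran between -7.76 and -1.96 over the alternatives. The lowest value came without R183W WM1119 library 2, which leaves 1 WM1119 library at 0 counts, so the size of the change is not determined. LOX overlaps SRFBP1 on the other strand, which had 2273 counts against 182 for LOX over all libraries. LOXL2, which oxidizes lysines of collagen IV, had 19.7 and 28.99 CPM with WM1119, against 48.3, 42.2 and 37.7 CPM with vehicle in R183W cells (log2 -0.82, SE 0.25, edgeR adjusted p = 0.084). In WT cells LOXL2 had 29.6, 21.3 and 17.8 CPM with WM1119, against 32.6, 39.5 and 45.9 CPM with vehicle (log2 -0.76, SE 0.22, edgeR adjusted p = 0.0672). LOXL2 was thus lower in every WM1119 library of both genotypes but was not called; it shares part of its locus with ENTPD4.

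**Figure D3:**
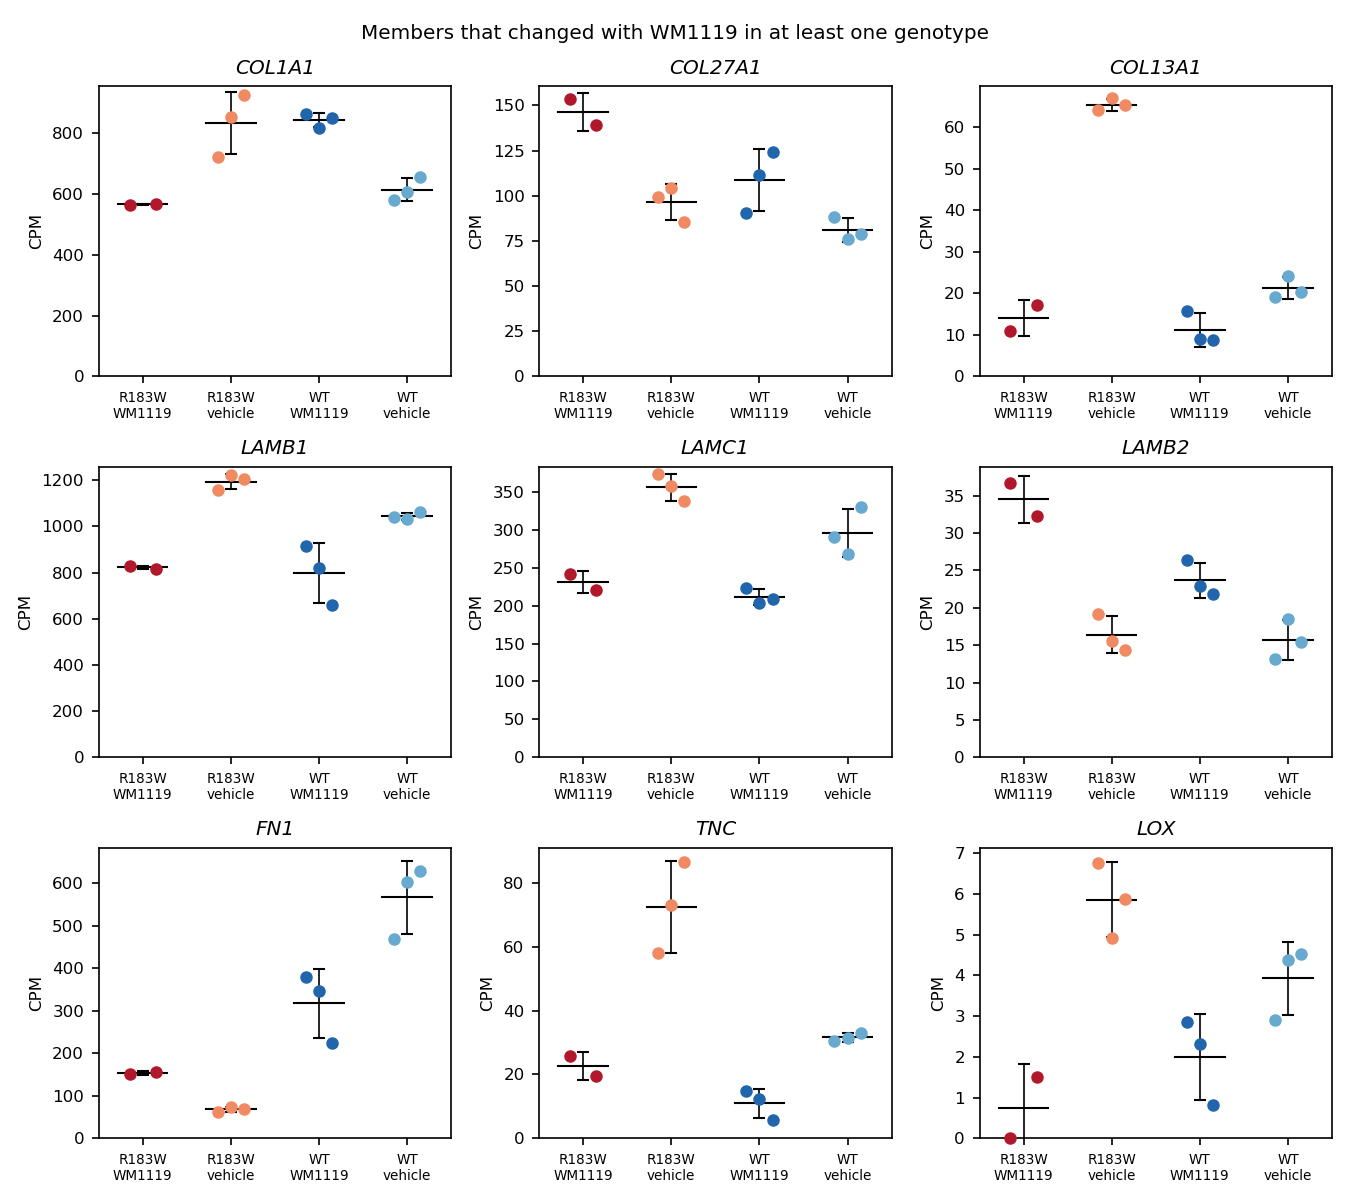
CPM by library (points) with the group mean (line) and SD (bar, drawn down to 0 at most) for the 9 members called with WM1119 in at least 1 genotype; the groups are R183W with WM1119, R183W with vehicle, WT with WM1119 and WT with vehicle. COL13A1, TNC and LAMC1 are lower with WM1119 in both genotypes, LAMB2 and COL27A1 are higher, and COL1A1 and FN1 cross.

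The second comparison asked how R183W cells differed from WT cells under each treatment. Under vehicle, R183W cells had far less fibronectin, laminin alpha 4 and COL6A3 transcript than WT cells and more COL13A1, tenascin-C and perlecan. Of 33 members, 11 were called, 4 higher and 7 lower, or 33.3%, against 13.0% of all genes (6.82% higher, 6.17% lower). Under WM1119, 8 were called, 3 higher and 5 lower, or 24.2%, against 8.56% of all genes (4.64% higher, 3.92% lower). The median log2 difference of the members was 0.0247 under vehicle and -0.145 under WM1119, against -0.0081 and -0.0237 over all genes. Over all genes tested, 19.3% had every R183W library above every WT library under vehicle and 18.5% had every one below. Under WM1119 these shares were 18.5% and 16.3%.

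Leaving out 1 library changed the counts of members called here too. Under vehicle, the count of 11 became 7 without R183W vehicle library 1 (6.95% of all genes called), 5 without R183W vehicle library 2 (7.45%) and 6 without WT vehicle library 2 (6.98%). Under WM1119, the count of 8 became 4 and 3 without R183W WM1119 libraries 1 and 2 in turn, where 2.62% and 2.68% of all genes were called. It became 14 when WT WM1119 library 3 was left out, with 20.8% of all genes called.

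Fibroblast and epithelial markers also differed between genotypes. PDGFRB averaged 0.271 CPM in R183W cells and 22.5 CPM in WT cells with WM1119, and 5.82 CPM in R183W cells and 38.5 CPM in WT cells with vehicle, and was called lower in R183W cells under both treatments. ACTA2, the smooth muscle actin of myofibroblasts, was called higher in R183W cells under both. It averaged 7.95 CPM in R183W cells and 1.96 CPM in WT cells with WM1119 (log2 1.93, SE 0.45, edgeR adjusted p = 0.0178), and 6.69 CPM in R183W cells and 2.62 CPM in WT cells with vehicle (log2 1.34, SE 0.39, edgeR adjusted p = 0.0369). The fibroblast markers DCN, POSTN and HAND2 were at 0 in every library, and LUM, at 0.151 to 4.05 CPM by group, was not called. Of the epithelial markers, keratin KRT8 was called higher in R183W cells under WM1119 (log2 0.45) and vehicle (log2 0.64), while KRT18 was higher (log2 0.73) and EPCAM lower (log2 -0.64) under vehicle. Both PDGFRB calls, and those of KRT8 and KRT18 under vehicle, held in all 11 leave-one-out fits. ACTA2 under vehicle held in 3, those without any 1 of the WT WM1119 libraries, and under WM1119 it was lost without R183W WM1119 library 1 or 2 or WT WM1119 library 1. KRT8 under WM1119 held in 2, those without WT WM1119 library 3 or WT vehicle library 1, and EPCAM under vehicle was lost without R183W vehicle library 1 (0.053). The part of these markers in the matrix differences was not tested.

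**Figure D4:**
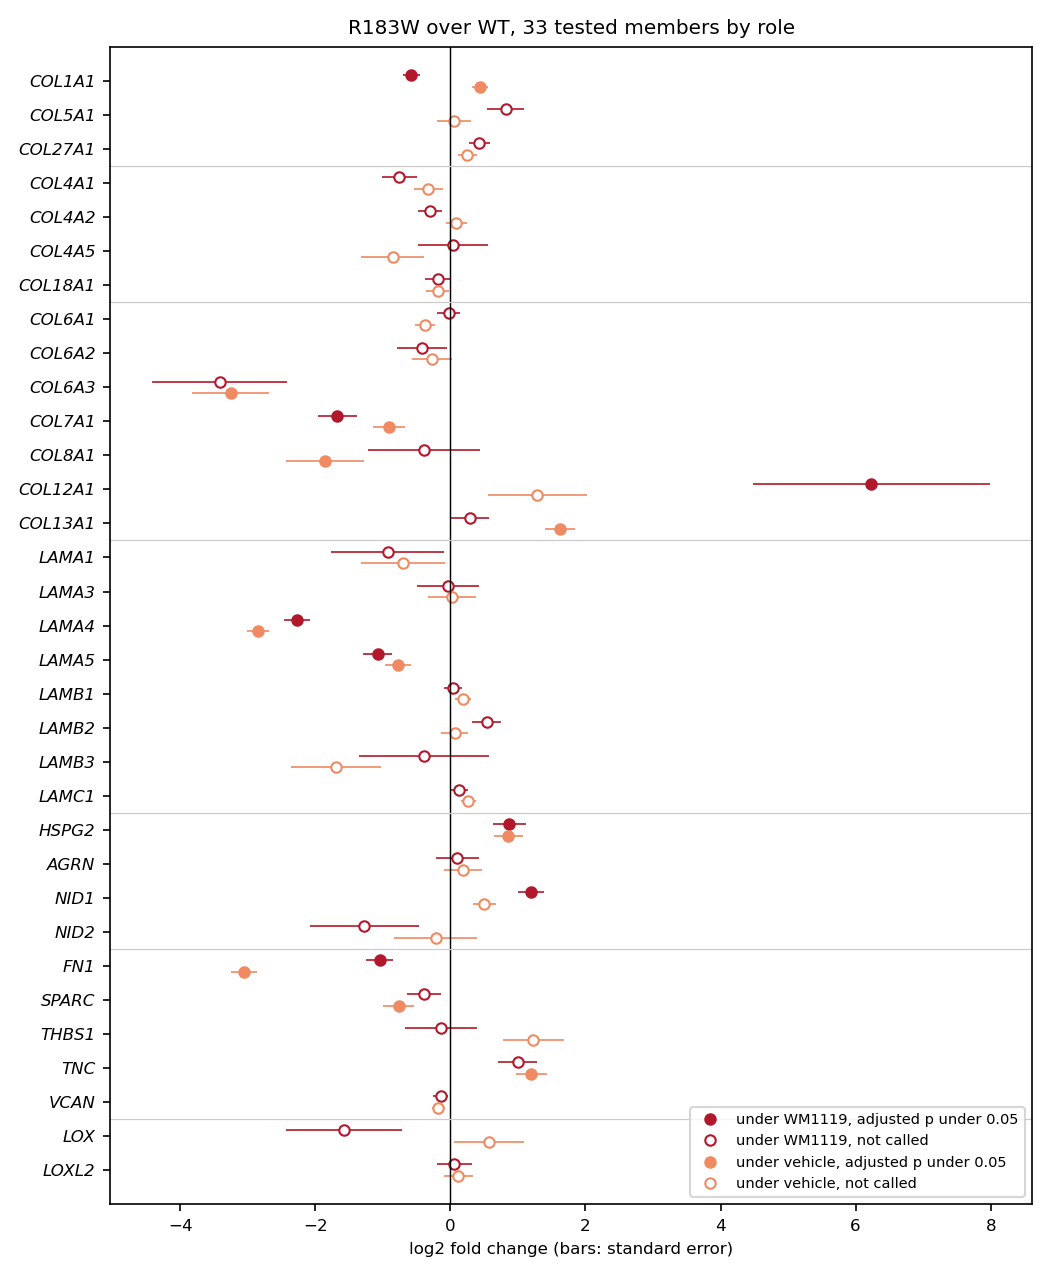
Log2 difference of R183W over WT cells (horizontal axis; bars are standard errors) of the 33 tested members, grouped by role, under WM1119 (dark red) and under vehicle (orange). Filled points passed the threshold; LAMA4, LAMA5, COL7A1 and FN1 were lower and HSPG2 higher under both treatments, and COL1A1 changes side.

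Fibronectin and laminin alpha 4 were lower in R183W cells under both treatments. From the values above, FN1 averaged 154 ± 4.28 CPM in R183W cells (SD, n = 2) and 317 ± 81.7 CPM in WT cells (n = 3) with WM1119, and 68.0 ± 6.32 CPM in R183W cells and 566 ± 86.3 CPM in WT cells with vehicle (n = 3 each). The log2 difference was -1.05 (SE 0.21, edgeR adjusted p = 0.00638) under WM1119 and -3.06 (SE 0.19, edgeR adjusted p = 2.66e-07) under vehicle. FN1 ranked 7th per kb among the members in WT cells with vehicle and 16th in R183W cells with vehicle. The vehicle call held in all 11 leave-one-out fits, and the WM1119 call was lost without R183W WM1119 library 1 (0.0872) or 2 (0.078).

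LAMA4 (ENSG00000112769) had 21.8 and 29.6 CPM in R183W cells with WM1119, against 132, 118 and 121 CPM in WT cells with WM1119. With vehicle it had 14.7, 14.8 and 20.1 CPM in R183W cells, against 117, 120 and 121 CPM in WT cells. The genotypes were far apart under both treatments, with a log2 difference of -2.27 (edgeR adjusted p = 7.68e-06, SE 0.19) under WM1119 and -2.85 (SE 0.16, edgeR adjusted p = 1.35e-07) under vehicle, and both calls held in all 11 leave-one-out fits. LAMA5 (ENSG00000130702), the alpha chain of most epithelial laminins, had 92.4 and 68.9 CPM in R183W cells, against 211, 179 and 119.7 CPM in WT cells with WM1119. With vehicle LAMA5 had 89.9, 98.2 and 109.9 CPM in R183W cells, against 151, 173 and 186 CPM in WT cells. All R183W libraries were below all WT libraries, with a log2 difference of -1.08 (edgeR adjusted p = 0.00787, SE 0.22) under WM1119 and -0.77 (SE 0.19, edgeR adjusted p = 0.0158) under vehicle. The LAMA5 call under WM1119 was lost without R183W WM1119 library 2 (0.144), and under vehicle without R183W vehicle library 1 (0.0937) or 2 (0.0605) or WT vehicle library 2 (0.0682) or 3 (0.0639). LAMA5 overlaps ADRM1 on the other strand, which had a like number of counts. The beta and gamma chains LAMB1, LAMB2, LAMB3 and LAMC1 were not called between genotypes.

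The basement membrane linkers perlecan and nidogen 1 were higher in R183W cells. HSPG2 (ENSG00000142798) had 94.1 and 90.0 CPM in R183W cells, against 40.2, 43.4 and 69.0 CPM in WT cells with WM1119. With vehicle HSPG2 had 99.5, 83.9 and 83.3 CPM in R183W cells, against 60.7, 52.4 and 34.2 CPM in WT cells. The groups did not overlap, and the log2 difference was 0.87 (SE 0.25, edgeR adjusted p = 0.0417) under WM1119 and 0.86 (SE 0.22, edgeR adjusted p = 0.0198) under vehicle. NID1 (ENSG00000116962), which bridges laminin and collagen IV, had 68.9 and 61.9 CPM in R183W cells, against 30.5, 30.6 and 24.0 CPM in WT cells with WM1119. With vehicle NID1 had 46.9, 39.8 and 52.5 CPM in R183W cells, against 27.9, 39.3 and 30.9 CPM in WT cells, separated by a narrow gap. NID1 was called under WM1119 (log2 1.20, SE 0.20, edgeR adjusted p = 0.0019), in all 11 leave-one-out fits, and not under vehicle (log2 0.50, SE 0.18, edgeR adjusted p = 0.077). The HSPG2 call under WM1119 was kept in 3 of 11 leave-one-out fits, those without WT WM1119 library 3 or WT vehicle library 1 or 3, and reached 0.213 in the others. Under vehicle it did not hold without R183W vehicle library 1 (0.0792) or 2 (0.0504) or WT vehicle library 3 (0.0858).

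Among the non-fibrillar collagens, COL6A3, COL7A1 and COL8A1 were lower and COL13A1 higher in R183W cells under vehicle. COL6A3 (ENSG00000163359), the largest type VI collagen chain, had 0.825, 2.35 and 0.405 CPM in R183W cells, against 8.48, 11.8 and 13.7 CPM in WT cells with vehicle. Its log2 difference was -3.25 (SE 0.58, edgeR adjusted p = 0.00224), called in all 11 leave-one-out fits. With WM1119, COL6A3 had 2 counts over the R183W libraries and 34 over the WT libraries and was not called (edgeR adjusted p = 0.0502). COL7A1 (ENSG00000114270), which forms the anchoring fibrils beneath epithelia, had 14.2 and 12.7 CPM in R183W cells, against 34.0, 45.7 and 50.0 CPM in WT cells with WM1119. With vehicle COL7A1 had 24.4, 12.6 and 22.1 CPM in R183W cells, against 43.1, 37.7 and 31.4 CPM in WT cells. COL7A1 was below every WT library in each R183W library of the same treatment (WM1119 log2 -1.67, SE 0.29, edgeR adjusted p = 0.0028; vehicle log2 -0.91, SE 0.24, edgeR adjusted p = 0.0213). The WM1119 call held in all 11 leave-one-out fits, and the vehicle call did not hold without R183W vehicle library 2 (0.0833) or WT vehicle library 1 (0.0624) or 2 (0.0693).

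COL8A1 (ENSG00000144810), a short-chain collagen of vessel walls and Descemet's membrane, had 2.31, 1.07 and 2.23 CPM in R183W cells, against 8.48, 8.96 and 3.39 CPM in WT cells with vehicle. The groups did not overlap, though the lowest WT library came close to the R183W libraries (log2 -1.86, SE 0.58, edgeR adjusted p = 0.0492). That call was kept in 4 of 11 leave-one-out fits, those without any of the 3 WT WM1119 libraries or WT vehicle library 3, and reached 0.178 in the others. COL13A1 was higher in R183W cells under vehicle, at 65.5 ± 1.41 CPM in R183W cells and 21.2 ± 2.63 CPM in WT cells (SD, n = 3 each; log2 1.62, SE 0.22, edgeR adjusted p = 0.000271, called in all 11 leave-one-out fits), and was not called under WM1119 (log2 0.29, SE 0.28). COL12A1 (ENSG00000111799) had 0.96 and 3.32 CPM in R183W cells, against 0 counts in the 3 WT libraries with WM1119 (edgeR adjusted p = 0.0483). With 3 counts over the WT group as the floor and the 15 R183W counts taken as observed, it was 7.27-fold higher. The spread of those 15 counts is not in that fold. COL12A1 under vehicle had 4.12, 3.00 and 4.46 CPM in R183W cells, against 0.669, 0.381 and 3.57 CPM in WT cells, which overlapped. The COL12A1 call was kept in 4 of 11 leave-one-out fits, those without WT WM1119 library 3 or any of the 3 WT vehicle libraries, and reached 0.283 in the others.

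COL1A1 had opposite genotype differences under the 2 treatments. With WM1119 it averaged 566 ± 1.87 CPM in R183W cells (n = 2) and 844 ± 22.9 CPM in WT cells (n = 3), a log2 difference of -0.58 (edgeR adjusted p = 0.0132, SE 0.13). With vehicle it averaged 835 ± 103 CPM in R183W cells and 615 ± 38.8 CPM in WT cells (n = 3 each), a log2 difference of 0.44 (edgeR adjusted p = 0.0205, SE 0.11). The WM1119 call was lost without R183W WM1119 library 1 (0.112) or 2 (0.117), and the vehicle call without R183W vehicle library 2 (0.0788) or 3 (0.1) or WT vehicle library 1 (0.0604) or 2 (0.074).

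Of the remaining glycoproteins, tenascin-C was higher and SPARC lower in R183W cells under vehicle. TNC averaged 72.5 ± 14.3 CPM in R183W cells and 31.6 ± 1.41 CPM in WT cells (SD, n = 3 each; log2 1.20, SE 0.23, edgeR adjusted p = 0.00399), a call that held in all 11 leave-one-out fits. With WM1119, each R183W library was again above the WT libraries, at 22.7 ± 4.27 CPM in R183W cells and 10.9 ± 4.63 CPM in WT cells, but TNC missed the threshold (log2 1.00, SE 0.29, edgeR adjusted p = 0.0509). SPARC (ENSG00000113140) had 92.1, 101 and 102 CPM in R183W cells, against 130.1, 169 and 202 CPM in WT cells with vehicle (log2 -0.76, SE 0.23, edgeR adjusted p = 0.0421). With WM1119 SPARC had 155 and 131 CPM in R183W cells, against 242, 204 and 113 CPM in WT cells, and the groups overlapped at WT WM1119 library 3. The SPARC call under vehicle was kept in 3 of 11 leave-one-out fits, those without WT WM1119 library 1 or 3 or WT vehicle library 1, and reached 0.172 in the others. LOX, LOXL2, VCAN and THBS1 were not called between genotypes.

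**Figure D5:**
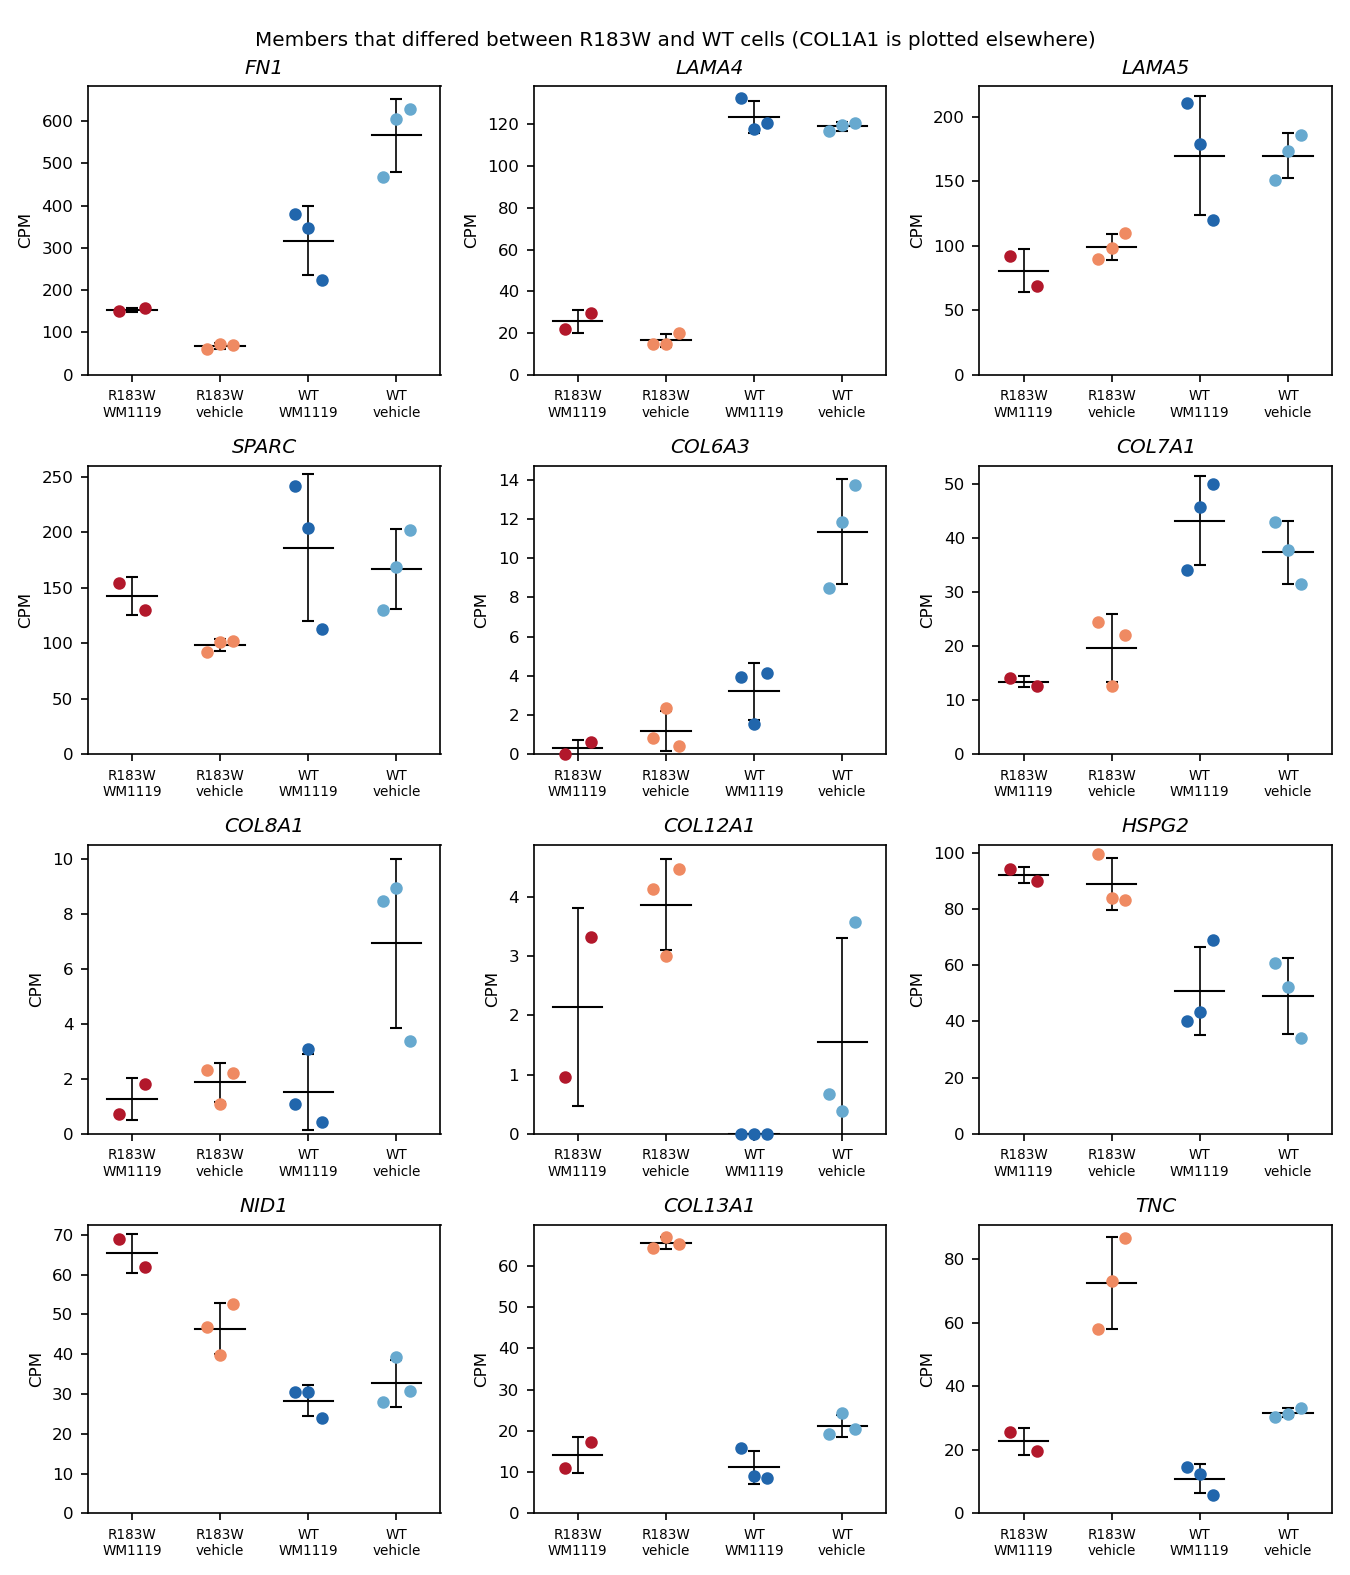
CPM by library (points) with the group mean (line) and SD (bar, drawn down to 0 at most) for 12 of the 13 members called between R183W and WT cells under at least 1 treatment; COL1A1 is in the plot of members called with WM1119. LAMA4, LAMA5 and COL7A1 are lower and HSPG2 higher in R183W cells under both treatments, and COL13A1 differs under vehicle but not with WM1119.

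The interaction asked whether WM1119 acted differently in the 2 genotypes, as the R183W effect minus the WT effect. Of 33 members, 2 were called, which is 6.06%, against 0.286% of all genes. FN1 had an interaction of 2.01 on the log2 scale (SE 0.27, edgeR adjusted p = 0.0148), higher in R183W cells. COL1A1 had an interaction of -1.02 (SE 0.17, edgeR adjusted p = 0.0252), lower in R183W cells. At an unadjusted p under 0.05, 6 members passed; COL13A1 (log2 -1.33, SE 0.36, edgeR adjusted p = 0.193) is the member with the next smallest p and was picked after its values were seen. The count of members was 0 without R183W WM1119 library 1 or 2, where 2 and 1 of all genes were called in turn, and without R183W vehicle library 2 or 3, where 0 of all genes were called; it was 1 when WT WM1119 library 2 or any of the 3 WT vehicle libraries was left out. FN1 did not hold without R183W WM1119 library 1 (0.0804) or 2 (0.103) or R183W vehicle library 2 (0.0537) or 3 (0.0503), and COL1A1 was kept in 3 of 11 leave-one-out fits, those without R183W vehicle library 1 or WT WM1119 library 1 or 3, with up to 0.2 in the others. The effects in R183W and WT cells for LAMB1, LAMC1 and TNC differed by -0.15 (SE 0.18), -0.14 (SE 0.18) and -0.20 (SE 0.38), and none of these differences was called.

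Over the 5 comparisons, 18 of the 33 tested members were called at least once and 15 were not. The 15 were AGRN, COL18A1, COL4A1, COL4A2, COL4A5, COL5A1, COL6A1, COL6A2, LAMA1, LAMA3, LAMB3, LOXL2, NID2, THBS1 and VCAN. They include abundant transcripts such as VCAN and COL6A1 and rare ones such as LAMA1 and LAMB3. LAMA3 and LAMB3 encode chains of the laminin of epithelial anchoring. LAMA3 averaged 2.74 CPM with WM1119 and 5.41 CPM with vehicle in R183W cells, and 2.82 CPM with WM1119 and 5.32 CPM with vehicle in WT cells (edgeR adjusted p = 0.243 and 0.196).

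Other matrix genes were counted in lists. Over all genes, 1.99% were called higher and 2.65% lower with WM1119 in R183W cells, and 2.33% higher and 2.53% lower in WT cells. Of 20 tested matrix glycoproteins and proteoglycans outside the members, 2 rose and 2 fell with WM1119 in each genotype. TGFBI, an integrin-binding adhesion protein, fell in R183W cells (log2 -1.01, SE 0.16, edgeR adjusted p = 0.00301) and in WT cells (log2 -0.90, SE 0.14, edgeR adjusted p = 0.00261). VWA1, a basement membrane protein that binds perlecan, rose in R183W cells (log2 1.29, SE 0.22) and WT cells (log2 1.77, SE 0.21), and SMOC1, a calcium-binding matricellular protein, fell in R183W cells (log2 -1.97, SE 0.53) and WT cells (log2 -1.79, SE 0.34). SPP1 (osteopontin) rose in R183W cells (log2 0.78, SE 0.11), was not called in WT cells (log2 -0.14, SE 0.10) and was called in the interaction (log2 0.91, SE 0.15, edgeR adjusted p = 0.0252). SPOCK1, a testican proteoglycan, rose in WT cells (log2 0.75, SE 0.13). Of 24 genes of collagen modification and processing, LOXL4, a lysyl oxidase family member, fell in R183W cells (log2 -2.45, SE 0.37), and PLOD1, a lysyl hydroxylase, rose in WT cells (log2 0.70, SE 0.18). Of 15 matrix receptors, 1 rose and 3 fell in R183W cells and 2 fell in WT cells: the proteoglycan GPC4 fell in both (log2 -1.05, SE 0.27 in R183W cells and -1.31, SE 0.24 in WT cells), CD44, the hyaluronan receptor, fell in WT cells (log2 -1.29, SE 0.15), and SDC2 and HMMR fell and GPC1 rose in R183W cells. Without R183W WM1119 library 1 or 2, the R183W calls of SMOC1, GPC4, SDC2, HMMR and GPC1 were lost, as were those of VWA1 and LOXL4 without library 1 and of TGFBI without library 2. In WT cells the calls of TGFBI, VWA1, SPOCK1, CD44 and GPC4 held in all 11 leave-one-out fits, SMOC1 was lost without WT WM1119 library 2 or WT vehicle library 2, and PLOD1 held in 2, those without WT WM1119 library 1 or WT vehicle library 1.

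Between genotypes, the same lists held some of the widest differences. SPOCK1 had 7.92 and 7.25 CPM in R183W cells, against 149, 143 and 157 CPM in WT cells with WM1119, and 9.07, 7.49 and 7.10 CPM in R183W cells, against 97.3, 83.5 and 86.2 CPM in WT cells with vehicle. It was called lower in R183W cells under both treatments (WM1119 log2 -4.29, SE 0.19; vehicle log2 -3.48, SE 0.15). COL14A1, a fibril-associated collagen, was lower as well (WM1119 log2 -1.76, SE 0.17; vehicle log2 -1.73, SE 0.14), as was the adhesion receptor MCAM (WM1119 log2 -2.85, SE 0.54; vehicle log2 -1.59, SE 0.36). NPNT (nephronectin, an integrin ligand of basement membranes) was higher in R183W cells (WM1119 log2 3.55, SE 0.81; vehicle log2 2.97, SE 0.73). FMOD (fibromodulin, which binds collagen fibrils) had 32 counts in R183W cells and 0 in WT cells with vehicle. At the floor of 3 counts over the WT group, with the 32 counts taken as observed, it was 10.2-fold higher. Under vehicle, 3 of 24 modification genes were higher and 1 lower, 4 of 20 glycoproteins and proteoglycans higher and 3 lower, and 1 of 15 receptors higher and 2 lower. Under WM1119 these counts were 2 and 0, 4 and 4, and 0 and 1. Over all genes, 6.82% were called higher and 6.17% lower under vehicle, and 4.64% higher and 3.92% lower under WM1119. Also called under vehicle were SPON2 (log2 3.10) and the syndecan SDC1 (1.26), both higher, and the collagen receptor DDR1 (-0.81), lower. Under WM1119, EFEMP1, an elastic fibre protein of the fibulin family, was lower (log2 -2.69). Prolyl hydroxylase P3H2 was higher under both treatments (WM1119 log2 0.80; vehicle log2 0.60), as were P3H4 under WM1119 (0.95) and LOXL4 (0.95) and P4HB (0.37) under vehicle, where PLOD2 was lower (-1.08). SPOCK1 and COL14A1 held in all 11 leave-one-out fits under both treatments. The WM1119 calls of NPNT and MCAM did not hold without R183W WM1119 library 1 or 2, nor that of EFEMP1 without library 1. The vehicle calls of FMOD and MCAM did not hold without R183W vehicle library 1, nor that of NPNT without R183W vehicle library 2 or WT vehicle library 2. P4HB held in 3 of 11 such fits, LOXL4 under vehicle in 6, P3H4 and PLOD2 in 7 each, and P3H2 in 7 under vehicle and 9 under WM1119. The P3H2 and P3H4 calls under WM1119 did not hold without R183W WM1119 library 1 or 2, nor that of P3H4 without WT WM1119 library 1 or 2. Under vehicle, P4HB, PLOD2, P3H2 and LOXL4 were all lost without R183W vehicle library 1 or 2 or WT vehicle library 2.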

How the data were processed

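RNA-seq was analysed for 11 HEC50B libraries. The authors deposited one table of estimated counts by gene, not normalized; every deposited value is a whole number, and how it became whole was not given in the sources used here. Per the submitters' processing notes, STAR, RSEM and hg19 were used, with no versions or roles. Per the labels' protocols, RNA was extracted on RNeasy columns, treated with DNase I and made into libraries with a ScriptSeq Gold kit; the molecule is given as polyA RNA. Estimated counts share out reads that match several genes, so paralogs and overlapping genes are uncertain.

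Of 57736 IDs, 52301 were matched to symbols from a gene name table and GENCODE 29, and IDs without one held 0.89% of counts. CPM per kb used the joined length of all GENCODE exons of a gene, over all its transcripts. Promoter sequences came from RefSeq. Counts were filtered with filterByExpr, scaled with TMM factors and tested with edgeR 4.0.16 (R 4.3.3; quasi-likelihood F test, two-sided) in 1 fit of 4 group means over 11 libraries, with Benjamini-Hochberg adjustment over 13980 genes; genes with an adjusted p under 0.05 were called. The biological coefficient of variation was 19.6%. Standard errors were derived from the F statistic. Floors of 3 counts cover counting error only, and only on the side at 0 counts.

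Alternatives were median-ratio scaling, no filter, DESeq2 1.42.0, voom in limma 3.58.1, a replicate block, only the groups compared, and leaving out each library. Members called in any comparison, the most abundant member of each role, and up to 4 called genes of each other list per comparison were named. The members, lists and tests were chosen with earlier results of these data known. One gene that this rule names is not reported here.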

Additional observations from a re-analysis of the deposited data

Results flagged for a closer look

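The effect of WM1119 differed between the genotypes, by the interaction test, for 2 members and 1 other matrix gene. FN1 had an effect in R183W cells that exceeded that in WT cells by 2.01 on the log2 scale (SE 0.27, edgeR adjusted p = 0.0148): WM1119 libraries were above vehicle in R183W cells and below vehicle in WT cells, in every library. COL1A1 had a difference of -1.02 (SE 0.17, edgeR adjusted p = 0.0252), with WM1119 libraries below vehicle in R183W cells and above vehicle in WT cells, again in every library. The FN1 call was kept in 7 of 11 fits that left out 1 library, and the COL1A1 call in 3. With a replicate block neither was called (edgeR adjusted p = 0.0714 for FN1 and 0.146 for COL1A1). SPP1 had a difference of 0.91 (SE 0.15, edgeR adjusted p = 0.0252), with 823 and 860 CPM with WM1119 against 475 to 503 CPM with vehicle in R183W cells, and 458 to 520 CPM with WM1119 against 514 to 564 CPM with vehicle in WT cells. The SPP1 call was kept in 2 of 11 fits that left out 1 library, those without WT WM1119 library 1 or 3, and reached an adjusted p of 0.232 in the others.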

How the results depend on the processing

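No log2 change of a called member reversed under any alternative; 434 of these values stayed called and 141 missed the threshold. Median-ratio scaling moved none of 160 group levels by more than 1 SD and left the counts of members called at 9 and 4 for WM1119 in R183W and WT cells, 8 and 11 for genotype under WM1119 and vehicle, and 2 for the interaction. The count for WM1119 in WT cells was 9 with no filter (5.5% of all genes called) and 9 by DESeq2 (7.98%). With a replicate block the counts for WM1119 were 3 in R183W cells (1.87% of all genes called) and 1 in WT cells (2.05%). For genotype under WM1119 the block gave 5 (4.85%). For the interaction it gave 0, with 0 of all genes called and 6 members at an unadjusted p under 0.05 (edgeR). Without the block, limma-voom called 2 members in the interaction (0.265% of all genes) and DESeq2 called 3 (1.21%). The labels do not say whether replicate numbers pair the samples. Of 15 same-numbered pairs, 2 had deviations correlated over 0.1 (range -0.391 to 0.137), and different-numbered pairs ranged from -0.163 to 0.405. Deviations within groups of 2 or 3 libraries are tied to each other, so this check cannot exclude pairing. Fitting only the groups compared gave 15 for WM1119 in R183W cells (18.2% of all genes called) and 3 for genotype under WM1119 (2.49%). For WM1119 in WT cells that fit gave 0 (1.09%), with 12 at an unadjusted p under 0.05 (edgeR). By limma-voom, fitted over all 11 libraries, 5 were called for WM1119 in WT cells, with 4.48% of all genes called. Leaving out 1 library at a time gave 2 to 15 for WM1119 in R183W cells, 1 to 8 in WT cells, 5 to 13 for genotype under vehicle, 3 to 14 for genotype under WM1119 and 0 to 3 for the interaction (4 to 6 at an unadjusted p under 0.05 where the count was 0). When a library of the R183W WM1119 group is left out, the lone one is assumed to vary like the other groups. The cause of these shifts was not tested beyond the fewer libraries or other genes each fit held. Members with under about 5 CPM, such as LOX, COL12A1, LAMA1 and NID2, rest on few counts, and 3 counts is the floor for any of them.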
